A study of Mus musculus with 6 samples.

Results

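Tight junction claudins, simple epithelial keratins and the adhesion molecule Epcam were followed as 9 genes (Cldn3, Cldn4, Cldn6, Cldn7, Krt7, Krt8, Krt18, Krt19 and Epcam) out of 18193 measured genes, in whole mouse embryos that lacked Fz7 with or without Fz2. The genes were taken by name, through every array probe set whose annotation gives that gene symbol and no other. This gave 15 probe sets of 45101, and each gene was read from its brightest probe set by the mean of all 6 arrays, with the remaining ones given beside it. The single knockout group was Fz2+/+; Fz7-/- and the double knockout group Fz2-/-; Fz7-/-, with 3 arrays each, from whole embryos at embryonic day 8.5 on a C57BL6/129 mixed background and of mixed gender. Both groups thus lacked Fz7, and the comparison asks what loss of Fz2 (Fzd2 in current naming) adds to that of Fz7 (Fzd7). The labels do not say how the alleles were made, or if embryos were pooled for a sample, so a p-value here sets a difference against the variation among these 6 samples only, and part of that variation may be technical.

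Fz2 and Fz7 are Frizzled proteins, the cell surface receptors for Wnt signals. Claudins are membrane proteins that seal neighbouring epithelial cells to each other at tight junctions and set which ions pass between them. Keratins are intermediate filament proteins that work as pairs of a type II chain (Krt7 and Krt8) and a type I chain (Krt18 and Krt19), and these 4 are typical of simple, single-layered epithelia. Epcam is a membrane glycoprotein of epithelial cells that binds Cldn7 and keeps it at the cell membrane. At this stage such epithelia include the surface ectoderm, the gut endoderm, the visceral endoderm of the yolk sac and the trophoblast, whereas most mesoderm has little of these genes.

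The promoters are shown first, because the genes lie partly as neighbours in the genome and fell into 2 patterns over the arrays. RefSeq windows (GRCm38.p6) of 300 bases, 250 before and 50 after an annotated start, were found for 8 of the 9 genes, with a further window for a second start of Cldn7. Krt19 was not matched. In these, 6 motifs were searched on both strands: the E-box CAGGTG, which the repressors Snail and Zeb bind, the Grainyhead-like site AACCGGTT, the AP-2 site GCCNNNGGC, the GC box GGGCGG, the TATA box TATAAA and the Tcf and Lef site CTTTGAT. The sequences below belong to Cldn3 and Cldn4, which are neighbours, to Krt7, to Krt8 and Krt18, which are neighbours, and to Epcam. They run 5′ to 3′ on the gene's strand, and capitals mark any of the searched motifs, which overlap in places.
Cldn3 at chr5:134985964-134986263, + strand: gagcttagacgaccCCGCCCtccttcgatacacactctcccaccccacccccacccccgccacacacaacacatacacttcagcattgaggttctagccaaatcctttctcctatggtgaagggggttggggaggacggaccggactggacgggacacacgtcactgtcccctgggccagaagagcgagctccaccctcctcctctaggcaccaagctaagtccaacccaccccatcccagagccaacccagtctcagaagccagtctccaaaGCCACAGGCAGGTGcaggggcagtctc
Cldn4 at chr5:134946885-134947184, - strand: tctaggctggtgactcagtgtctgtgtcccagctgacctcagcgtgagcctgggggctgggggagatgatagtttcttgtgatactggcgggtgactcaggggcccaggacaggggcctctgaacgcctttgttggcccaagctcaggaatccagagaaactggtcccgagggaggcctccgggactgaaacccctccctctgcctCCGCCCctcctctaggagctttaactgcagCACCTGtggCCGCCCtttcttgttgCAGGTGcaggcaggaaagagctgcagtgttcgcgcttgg
Krt7 at chr15:101412153-101412452, + strand: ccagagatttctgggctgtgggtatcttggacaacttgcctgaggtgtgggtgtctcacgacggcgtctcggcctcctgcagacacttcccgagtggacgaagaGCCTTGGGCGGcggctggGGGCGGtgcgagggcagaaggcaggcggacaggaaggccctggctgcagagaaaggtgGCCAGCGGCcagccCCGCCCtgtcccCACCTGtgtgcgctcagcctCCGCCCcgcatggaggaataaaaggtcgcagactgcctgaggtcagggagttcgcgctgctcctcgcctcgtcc
Krt8 at chr15:102004293-102004592, - strand: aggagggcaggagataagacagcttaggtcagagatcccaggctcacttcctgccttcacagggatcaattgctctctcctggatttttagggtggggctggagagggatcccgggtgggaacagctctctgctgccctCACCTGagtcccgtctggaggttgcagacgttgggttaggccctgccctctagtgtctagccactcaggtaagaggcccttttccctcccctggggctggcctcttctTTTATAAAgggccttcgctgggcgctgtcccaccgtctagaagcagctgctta
Krt18 at chr15:102027966-102028265, + strand: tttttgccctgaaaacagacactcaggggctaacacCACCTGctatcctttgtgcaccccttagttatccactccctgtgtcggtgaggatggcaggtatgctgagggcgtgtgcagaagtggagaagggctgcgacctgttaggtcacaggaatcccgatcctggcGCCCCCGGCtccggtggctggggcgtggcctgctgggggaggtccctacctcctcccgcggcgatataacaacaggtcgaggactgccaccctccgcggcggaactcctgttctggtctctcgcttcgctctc
Epcam at chr17:87635729-87636028, + strand: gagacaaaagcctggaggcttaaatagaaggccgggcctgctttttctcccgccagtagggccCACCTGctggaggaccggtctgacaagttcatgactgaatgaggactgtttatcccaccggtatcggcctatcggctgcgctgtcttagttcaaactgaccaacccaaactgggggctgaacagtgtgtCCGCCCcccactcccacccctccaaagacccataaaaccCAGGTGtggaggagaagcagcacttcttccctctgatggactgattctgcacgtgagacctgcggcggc

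The E-box letters stood in 8 of the 9 windows, at least 1 for each of the 8 matched genes, while 20.2% of the 32851 RefSeq windows of this length hold them. The GC box was found for 6 of the 8 genes (Cldn3, Cldn4, Cldn6, Cldn7, Krt7 and Epcam) against 35.7% of all windows, and the AP-2 letters for 3 (Cldn3, Krt7 and Krt18) against 16.6%. TATAAA was found for Krt8 alone among the 8, against 13.6% of all windows. In Krt8 these letters begin at base -1 from the annotated start, so they lie on the start itself. Neither AACCGGTT nor CTTTGAT was in a window of these genes, and 0.146% and 3.73% of all windows hold them. A match of letters is a description and does not show that a factor binds there. The E-box letters occurred in genes of both patterns described below.

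The arrays of the 2 groups were separated by the gene that defines them. The Fzd2 values were 9.86, 9.99 and 10.01 in the single and 7.30, 7.69 and 7.63 in the double knockout arrays (replicates 1 to 3, as in all values below), a log2 difference of -2.42 (SE 0.11, n = 3 per group, limma adjusted p = 0.00567). Fzd7, homozygous mutant in both groups, read 4.92, 4.93 and 4.92 against 4.996, 4.849 and 4.812; where its probes lie relative to the mutation is not known here, so it checks no label. Fzd2 was the only one of 18193 genes to pass the threshold of 0.05. Double knockout replicate 1 stood apart, correlating with the other 5 arrays at 0.987 to 0.990 across genes, while those correlated with each other at 0.997 to 0.998. Without this array the Fzd2 difference was -2.30. Differences and list medians between the groups are therefore given below with and without it.

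None of the 9 epithelial genes passed the test between the groups. By limma 0 of 9 passed at an adjusted p of 0.05, where 0.0055% of all genes did, and 3 of 9 (Cldn3, Krt7 and Krt19) had an unadjusted p under 0.05, where 4.96% of all genes did. The groups did not overlap for 4 of the 9 genes, against 11.4% of all genes. Cldn3, Cldn4 and Krt7 were lower in every double knockout array (6.6% of all genes), and Krt18 was higher in each (4.85% of all genes). In a whole-embryo sample fewer cells of a type and less RNA per cell cannot be told apart. These genes share arrays and cells, so they are not independent of each other. The 9 genes, and the gene lists used below, were chosen with earlier results of these data known. Their shares beside those of all genes are therefore descriptions and carry no test.

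Over the 9 genes 5 had a mean above and 4 a mean below the single knockout. The median log2 difference was 0.09, beside -0.01 over all genes, and without double knockout replicate 1 it was -0.16, beside -0.01. Then 2 genes were above and 7 below, and the groups did not overlap for 6 (22.3% of all genes), of which 5 were lower (12.3% of all genes) and 1 was higher (10% of all genes). The lower ones were Cldn3, Cldn4, Cldn7, Krt7 and Epcam and the higher one Krt18. Leaving out this array thus moved Cldn6, Cldn7 and Epcam from above to below the single knockout.

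**Figure D1:**
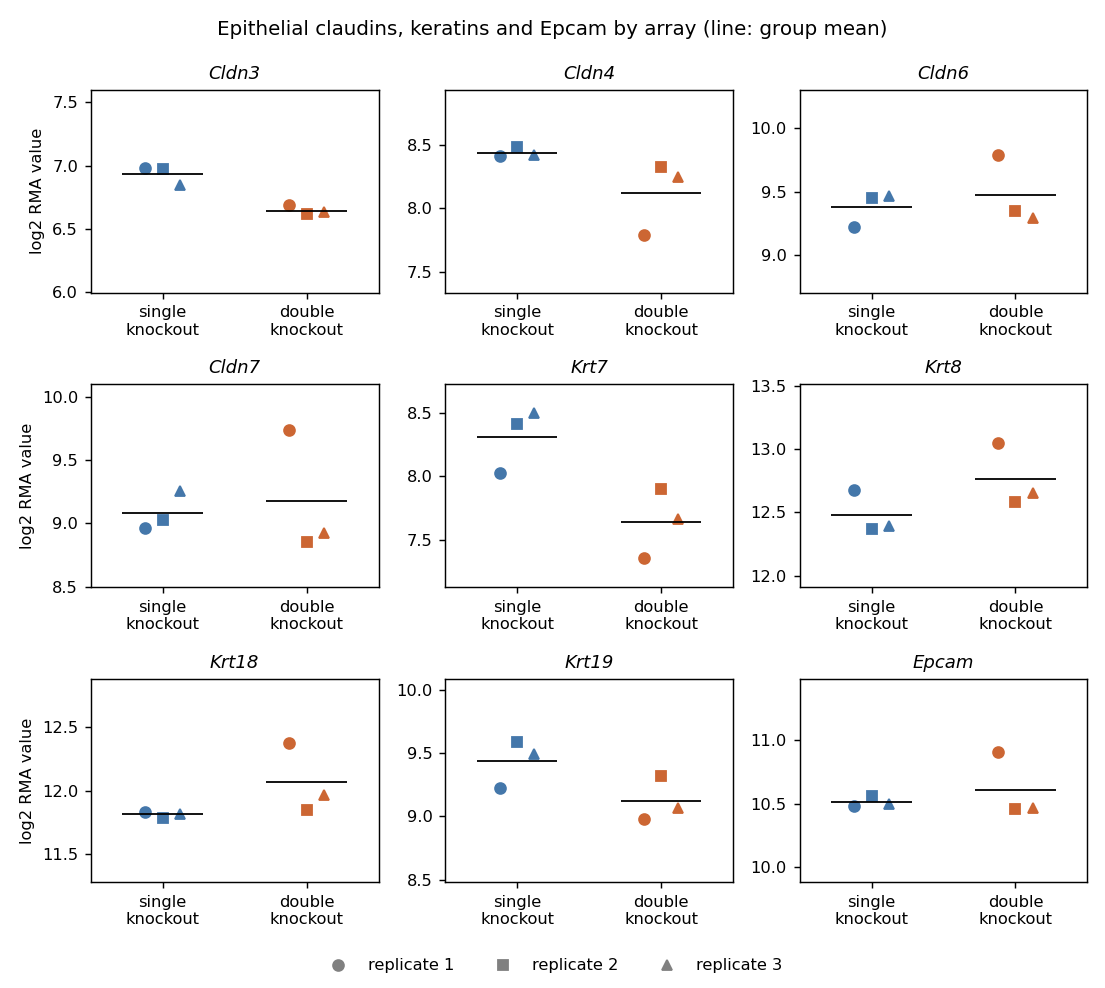
Log2 RMA values of the 9 genes in each array, with single knockout arrays in blue, double knockout arrays in orange, marker shape for the replicate number and a line for each group mean; every panel spans the same number of log2 units. Cldn3, Cldn4 and Krt7 are lower in all 3 double knockout arrays, and double knockout replicate 1 is the highest of the 6 arrays for Cldn6, Cldn7, Krt8, Krt18 and Epcam.

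Among the claudins, Cldn3 was slightly lower in the double knockout, and by a similar amount in each array. Cldn3, a barrier-forming claudin, read 6.98, 6.98 and 6.84 in the single knockout and 6.69, 6.62 and 6.63 in the double knockout. All 3 double knockout arrays lay below all 3 single knockout arrays, and replicate 1 did not stand out. The log2 difference was -0.29 (SE 0.06, n = 3 per group, limma adjusted p = 0.872), 81.9% of the single knockout level, with a 95% interval of -0.44 to -0.14 that is not adjusted for the number of genes. An exact two-sided permutation test gave p = 0.1, below which a design of 3 against 3 arrays cannot go. Without double knockout replicate 1 the difference was -0.31 (limma adjusted p = 0.701). The other 3 probe sets of Cldn3 differed by -0.25, -0.29 and -0.07 (-0.22, -0.24 and -0.07 without that array), and their groups did not overlap for the first of these only. Cldn3 lies below the median over all genes and arrays, which was 7.11, and genes under that level are called dim here.

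Cldn4 is the genomic neighbour of Cldn3 and encodes a claudin that limits sodium passage. It read 8.41, 8.48 and 8.42 in the single knockout and 7.79, 8.32 and 8.24 in the double knockout. Every double knockout array was below the single knockout range, with replicate 1 lowest by far. Cldn4 thus had a log2 difference of -0.32 (SE 0.14, n = 3 per group, limma adjusted p = 0.872, exact permutation p = 0.1). Without replicate 1 it was -0.16 (limma adjusted p = 0.734), so leaving it out brought the difference nearer to 0.

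Cldn6 and Cldn7 were higher in double knockout replicate 1 and not in the other double knockout arrays. Cldn6, a claudin of embryonic epithelia, read 9.22, 9.45 and 9.47 in the single knockout and 9.79, 9.35 and 9.30 in the double knockout. The last 2 of these lie within the single knockout range. Its log2 difference was 0.10 (SE 0.15, n = 3 per group, limma adjusted p = 0.916, exact permutation p = 0.8) and -0.06 without replicate 1 (limma adjusted p = 0.939).

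Cldn7, the claudin that Epcam binds, read 8.97, 9.03 and 9.26 in the single knockout and 9.74, 8.86 and 8.93 in the double knockout. Replicate 1 was above and replicates 2 and 3 were below the single knockout range. The log2 difference was 0.09 (SE 0.24, n = 3 per group, limma adjusted p = 0.954, exact permutation p = 1) and -0.19 without replicate 1 (limma adjusted p = 0.788). Its 95% interval, -0.48 to 0.66, was the widest among the 4 claudins.

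Among the keratins, the type II chain Krt7 had the largest difference of the 9 genes and lay lower in the double knockout. It read 8.02, 8.41 and 8.49 in the single knockout and 7.35, 7.90 and 7.66 in the double knockout. The highest double knockout array was still below the lowest single knockout array, and replicate 1 was the lowest. Krt7 had a log2 difference of -0.67 (SE 0.17, n = 3 per group, limma adjusted p = 0.872, exact permutation p = 0.1), or 62.8% of the single knockout level, with an unadjusted 95% interval of -1.09 to -0.25. Without replicate 1 it was -0.53 (limma adjusted p = 0.707).

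Krt19, a type I keratin without the usual tail domain, tended the same way with overlapping groups. It read 9.22, 9.59 and 9.49 in the single knockout and 8.98, 9.32 and 9.06 in the double knockout. Double knockout replicate 2 lay within the single knockout range and the other 2 lay below it. The log2 difference was -0.31 (SE 0.13, n = 3 per group, limma adjusted p = 0.872, exact permutation p = 0.2) and -0.24 without replicate 1 (limma adjusted p = 0.807).

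Krt8 and Krt18, the partner chains of the first keratin filaments of the embryo and neighbours in the genome, lay on the other side. Krt8 read 12.67, 12.37 and 12.39 in the single knockout and 13.05, 12.58 and 12.66 in the double knockout. Replicate 1 was the highest, and single knockout replicate 1 lay within the double knockout range. Krt8 had a log2 difference of 0.28 (SE 0.15, n = 3 per group, limma adjusted p = 0.872, exact permutation p = 0.3) and 0.14 without double knockout replicate 1 (limma adjusted p = 0.870). The other Krt8 probe sets both differed by 0.27, and by 0.12 without that array.

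Krt18 read 11.83, 11.79 and 11.82 in the single knockout, a spread of 0.02 (SD), and 12.37, 11.85 and 11.97 in the double knockout. All 3 double knockout arrays were above the single knockout, replicate 2 by a small margin. Krt18 had a log2 difference of 0.25 (SE 0.13, n = 3 per group, limma adjusted p = 0.872, exact permutation p = 0.1) and 0.10 without replicate 1 (limma adjusted p = 0.841).

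Epcam was highest in double knockout replicate 1 and close to the single knockout in the other 2 double knockout arrays. It read 10.48, 10.56 and 10.50 in the single knockout and 10.91, 10.46 and 10.47 in the double knockout. Replicates 2 and 3 lay just under the lowest single knockout array. The log2 difference was 0.10 (SE 0.13, n = 3 per group, limma adjusted p = 0.907, exact permutation p = 1) and -0.05 without replicate 1 (limma adjusted p = 0.926), with a 95% interval of -0.19 to 0.09. The dimmer Epcam probe set differed by 0.03 (-0.04 without replicate 1) with overlapping groups.

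**Figure D2:**
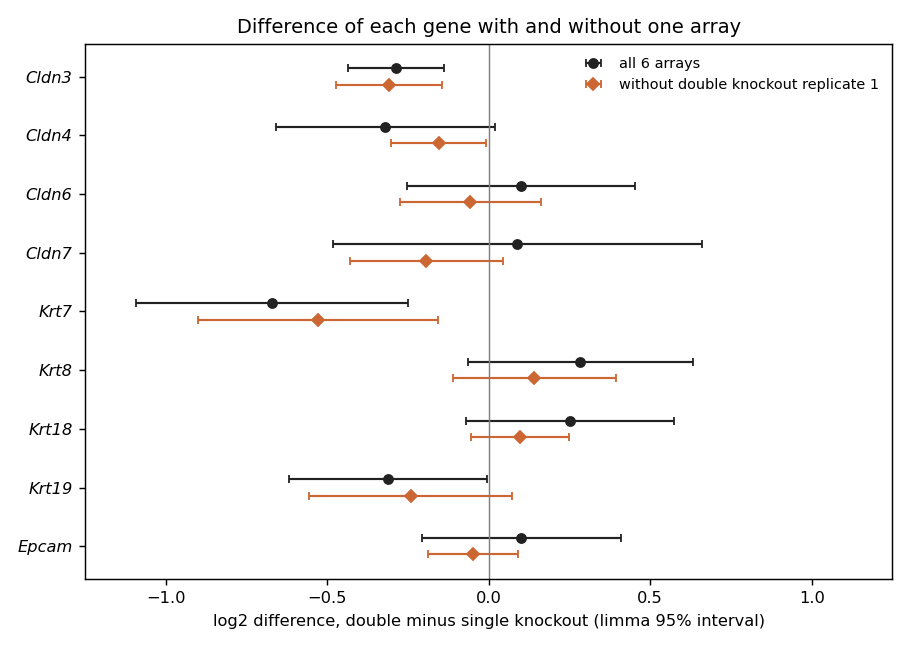
Log2 difference between double and single knockout for each gene with its limma 95% interval (not adjusted for the number of genes), for all 6 arrays in black and without double knockout replicate 1 in orange. The intervals of Cldn3 and Krt7 lie below 0 in both settings, and Cldn6, Cldn7 and Epcam change sign when the array is left out.

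The size of change that these arrays could miss differs by gene. With all 6 arrays the outermost interval ends were -1.09 for Krt7 and 0.66 for Cldn7. Without double knockout replicate 1 they were -0.90 for Krt7 and 0.39 for Krt8. A p above the threshold therefore does not show that the groups are alike.

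The 9 genes fell into 2 patterns around double knockout replicate 1. In that array Cldn7 was 0.73 log2 units above the mean of the other 5 arrays, Krt18 0.52, Krt8 0.51, Cldn6 0.44 and Epcam 0.42. On the other side Krt7 differed by -0.74, Cldn4 by -0.59, Krt19 by -0.36 and Cldn3 by -0.12. Among all genes 3.39% were over 0.5 above that mean and 4.81% over 0.5 below it, while 3 and 2 of the 9 were. This array was the highest of the 6 for 5 of the 9 genes (25.3% of all genes) and the lowest for 3 (29.6% of all genes). The patterns were seen in these values and carry no test.

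**Figure D3:**
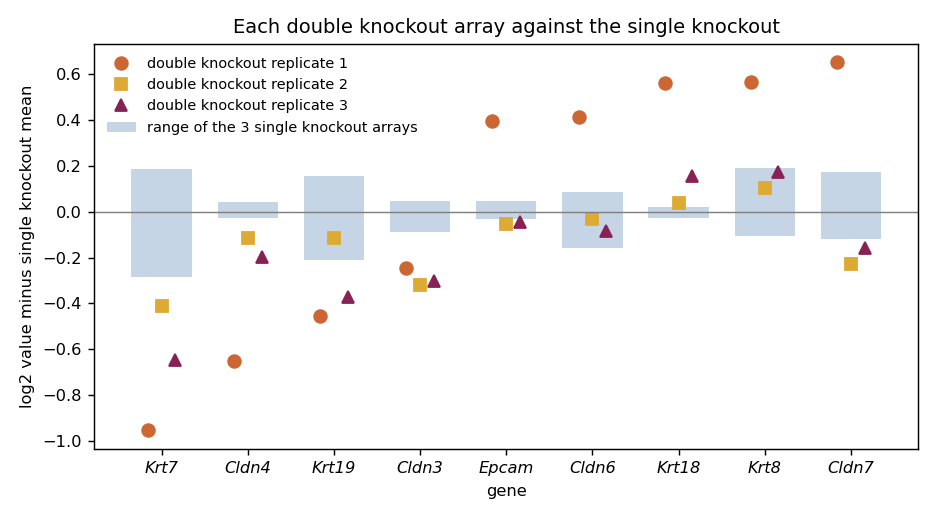
Log2 value of each double knockout array minus the single knockout mean, for the 9 genes ordered by double knockout replicate 1, with the range of the 3 single knockout arrays as a blue band. Replicates 2 and 3 lie close to each other for most genes, and replicate 1 lies farther from 0 than both for every gene except Cldn3.

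Replicates 2 and 3 of the double knockout, which resemble the other arrays across genes, give a smaller and mostly downward shift. In replicate 2, 5 of the 9 genes were below the single knockout range and 1 was above, where 31% of all genes were below and 20.7% above. In replicate 3, 6 were below and 1 above, where 23.6% and 26.6% were. Krt7 was the farthest from the single knockout mean in both, at -0.41 and -0.65. Krt18 lay outside the single knockout range on the upper side in both, at 0.04 and 0.16 above the mean.

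Correlations between the genes over the 6 arrays followed the same division. Pearson's r was above 0 for all 10 pairs among Cldn6, Cldn7, Krt8, Krt18 and Epcam (0.52 to 0.93) and for all 6 pairs among Cldn3, Cldn4, Krt7 and Krt19 (0.56 to 0.95). It was below 0 for all 20 pairs across the 2 sets (-0.99 to -0.09). The genes share the same arrays and scaling, and the sets were drawn from these values, so these are descriptions. Without double knockout replicate 1 the pairs of Krt8 or Krt18 with Cldn6, Cldn7 and Epcam turned negative, and r between Krt8 and Krt18 stayed positive at 0.67 (0.92 with all 6 arrays, n = 6). Krt7 and Krt19 kept r at 0.92 (0.95 with all 6), and Cldn3 and Cldn4 had 0.88 (0.56 with all 6). Over these 5 arrays Krt8 and Krt18 thus ran opposite to the other 7 genes.

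**Figure D4:**
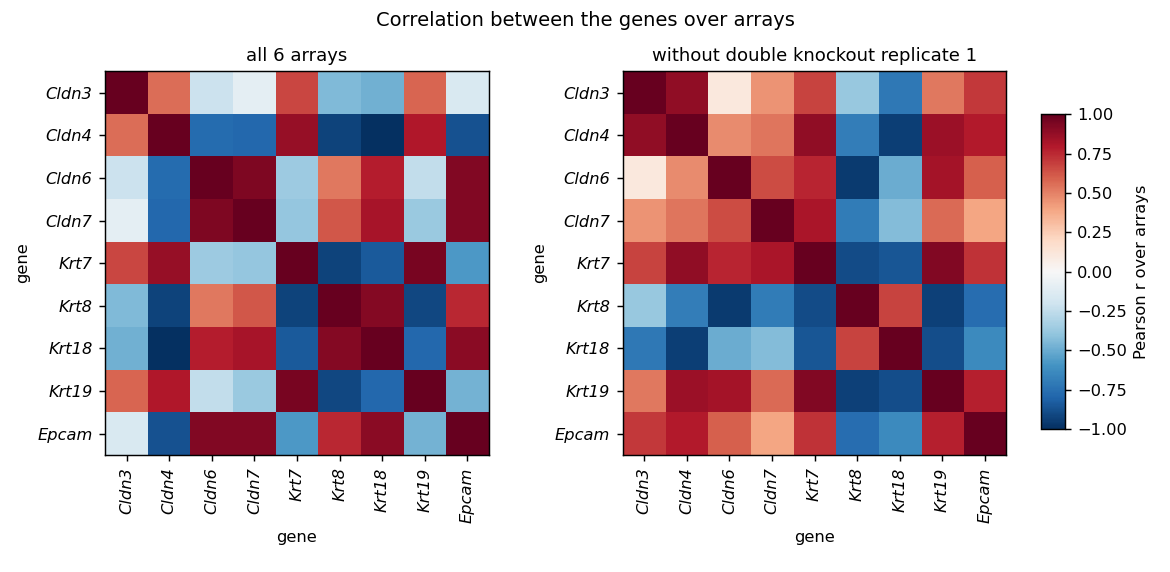
Pearson's r over arrays between each pair of the 9 genes, for all 6 arrays and for the 5 arrays without double knockout replicate 1, from -1 in blue to 1 in red. With all arrays Cldn6, Cldn7, Krt8, Krt18 and Epcam form a red block, and without that array Krt8 and Krt18 are blue against the other 7 genes.

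Other genes were ranked by how closely they followed the mean profile of the set. Among 754 other genes with a range of at least 1 log2 unit, the highest r to the mean of the 9 centred genes over 6 arrays was 0.91 for Fgfbp3, which encodes a binding protein of fibroblast growth factors, then 0.86 for the metallothionein gene Mt4, 0.82 for Erv3 and for the AMP deaminase gene Ampd3, and 0.80 for the creatine synthesis gene Gatm. Over the 5 arrays without double knockout replicate 1, where 125 genes had that range, the highest were Sostdc1 (0.99), the midbrain and hindbrain gene En2 (0.99), the collagen gene Col3a1 (0.99), the neural gene Zic1 (0.98) and the chemokine gene Cxcl12 (0.98). None of these 10 genes passed the test between the groups. The mean profile blends the opposite patterns above, and 0 genes were on both lists.

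Neighbouring genes were read to see how local the differences were. Cldn3 and Cldn4 (chromosome 5) are next to each other among protein-coding genes, and the genes flanking them, Mettl27 and Abhd11, differed by 0.0014 and -0.05, or 0.09 and -0.05 with double knockout replicate 1 left out. Krt8 and Krt18 (chromosome 15) are likewise adjacent, and their outer neighbours Krt78 and Eif4b differed by 0.01 and -0.02 (-0.01 and 0.04 without that array). Cldn6 (chromosome 17) lies between Tnfrsf12a and Cldn9. Cldn6 differed by 0.10 and Tnfrsf12a by 0.05, and without double knockout replicate 1 they differed by -0.06 and -0.17. Cldn9 read 8.07, 8.01 and 7.97 in the single knockout and 7.50, 7.75 and 7.72 in the double knockout, and its groups did not overlap. Its log2 difference was -0.36 (SE 0.08, n = 3 per group, limma adjusted p = 0.872) and -0.28 without double knockout replicate 1, so it lay below 0 in both settings while Cldn6 lay above 0 with all arrays. Slc2a4 and Elp5 beside Cldn7, Krt80 beside Krt7 and Krt15 beside Krt19 differed by -0.03, -0.02, 0.06 and -0.07, and by 0.04, -0.04, 0.0068 and 0.02 without that array. No neighbour that was measured passed the test.

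The rest of the claudin family gave no call either. Of 17 further claudins 15 were measured, 4 with a higher and 11 with a lower mean, a median difference of -0.12 (-0.11 without double knockout replicate 1) and 0 past the threshold. The groups did not overlap for 4 of the 15, or 26.7%, against 11.4% of all genes, and without that array for 5 of the 15, against 22.3%. Besides Cldn9 the smallest unadjusted p-values belonged to Cldn15, at 0.31 (SE 0.08, n = 3 per group), and Cldn8, at -0.77 (SE 0.27, n = 3 per group), both dim, which differed by 0.32 and -0.51 without that array. Cldn8 read 5.81, 6.31 and 6.10 in the single knockout and 4.79, 5.83 and 5.28 in the double knockout. In double knockout replicate 1 Cldn2, named here after its values were seen, read 9.36 against 6.75 to 7.17 in the other 5 arrays, and the endothelial claudin Cldn5, named likewise, read 7.02 against 8.22 to 8.52. Cldn2 and Cldn5 differed by 0.72 and -0.42 between the groups with all arrays, and without that one by -0.11 and 0.06.

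Other keratins were mostly dim, 15 of 17 lying below the median over all genes of 7.11. Of the 17, 6 had a higher and 11 a lower mean, with a median difference of -0.08 (-0.10 without double knockout replicate 1) and 0 past the threshold. The groups did not overlap for 6 of them, or 35.3%, against 11.4% of all genes, and without that array for 8, against 22.3%. Krt20, a keratin of gut and bladder epithelium, differed by -0.53 (SE 0.13, n = 3 per group), Krt23 by -0.18 (SE 0.05, n = 3 per group) and Krt17 by 0.16 (SE 0.07, n = 3 per group), each at limma adjusted p = 0.872. Without double knockout replicate 1 they differed by -0.47, -0.20 and 0.14. All 3 are dim, and RMA compresses differences near background.

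Most genes that build junctions with the claudins were highest in double knockout replicate 1, and none passed the test. Of 16 measured junction and polarity genes 12 had a higher mean and 4 a lower one, with a median of 0.06 (0.04 without that array), and this array was the highest of the 6 for 10. Cdh1, which encodes E-cadherin, the main adhesion protein of epithelia, read 10.10, 10.09 and 10.25 in the single knockout and 11.38, 10.21 and 10.19 in the double knockout. Its log2 difference was 0.45 (SE 0.32, n = 3 per group, limma adjusted p = 0.872) and 0.06 without replicate 1. The polarity gene Pard6b, the tight junction scaffold Tjp3 and the cingulin gene Cgn differed by 0.25, -0.23 and 0.17, and by 0.18, -0.19 and 0.10 without that array.

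Desmosome and linker genes, which anchor keratin filaments, had a higher mean for 6 of 10 with a median of 0.03 (-0.06 without double knockout replicate 1). The filament linkers Dst and Plec and the desmoplakin gene Dsp differed by 0.18, -0.19 and -0.12 (0.15, -0.15 and -0.18 without that array). Partners of Epcam and membrane serine proteases had a higher mean for 6 of 7 with a median of 0.11, and 3 of 7 without that array, with a median of -0.03. The protease inhibitor genes Spint1 and Spint2 differed by 0.18 each and the matriptase gene St14 by -0.09. Without double knockout replicate 1 Spint1 differed by 0.0032, Spint2 by 0.06 and St14 by -0.14, so that 1 array carried most of the first 2 differences. No gene of either list passed the test.

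Regulators of epithelial identity showed no call. Of 16 measured, 14 had a higher mean with a median of 0.04, and 7 without double knockout replicate 1 with a median of -0.02. Grhl2, a transcription factor that activates epithelial junction genes, read 8.03, 8.10 and 8.14 in the single knockout and 8.20, 8.15 and 8.14 in the double knockout, with a log2 difference of 0.07 (SE 0.06, n = 3 per group, limma adjusted p = 0.877) and 0.05 without that array. The epithelial splicing factor gene Esrp1 differed by 0.14 (SE 0.08, n = 3 per group) and by 0.07 without it. Trp63, which encodes p63, the master regulator of stratified epithelium, was dim and lower in every double knockout array. It read 5.999, 6.491 and 6.309 in the single knockout and 4.605, 5.770 and 5.207 in the double knockout, a difference of -1.07 (SE 0.29, n = 3 per group, limma adjusted p = 0.872) and -0.78 without replicate 1. Foxa1 and Ovol1 differed by 0.26 and -0.29 (0.24 and -0.37 without it).

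Mesenchymal genes and repressors of epithelial genes had a lower mean for 8 of 12, with a median of -0.11, and for 5 of 12 without double knockout replicate 1, with a median of 0.02. Vim, the intermediate filament gene of mesenchyme, differed by -0.07 (SE 0.07, n = 3 per group, limma adjusted p = 0.880) and by -0.03 without that array. Zeb1, a repressor that binds E-boxes, read 10.056, 10.128 and 9.996 in the single knockout and 9.340, 10.033 and 10.044 in the double knockout. Zeb1, Prrx1 and Twist1 differed by -0.25, -0.23 and -0.15 with all arrays; leaving out double knockout replicate 1 gave -0.02, -0.10 and -0.02. None of the 12 passed.

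**Figure D5:**
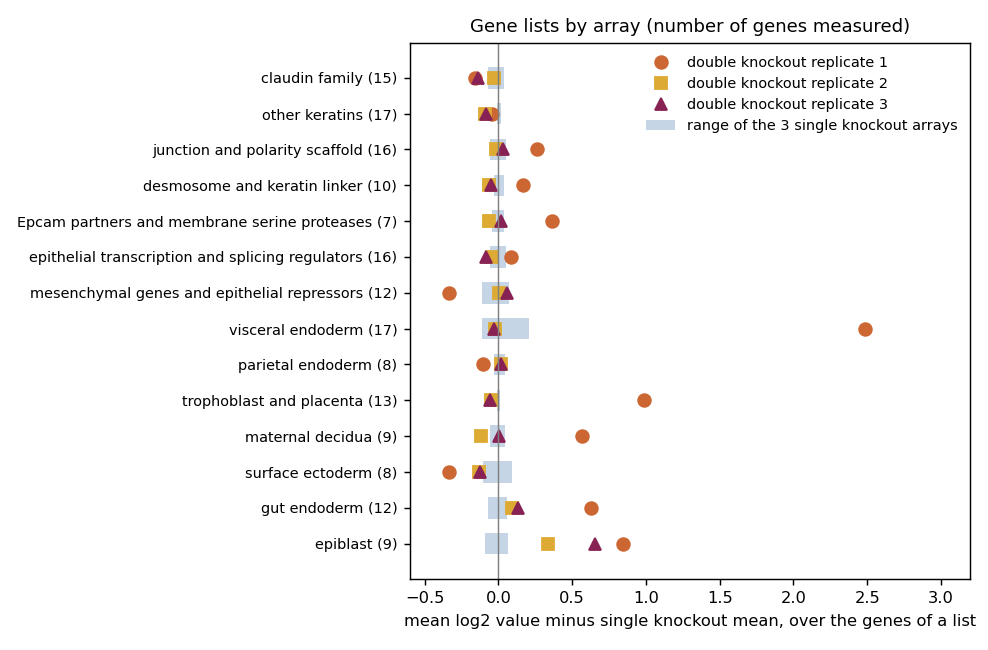
Mean over the measured genes of each list of the log2 value minus the single knockout mean, for double knockout replicates 1 to 3, with the range of the 3 single knockout arrays as a blue band; the primitive red cell list is left out because its values run to -3.90. Replicate 1 lies at 2.48 for visceral endoderm and at 0.99 for trophoblast and placenta, while replicates 2 and 3 lie within 0.14 of 0 for every list drawn except epiblast. The medians of these 2 lists in replicate 1 are 2.56 and 0.09.

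Among markers of other epithelia in or around the embryo, those of visceral endoderm moved as a whole list in double knockout replicate 1. All 17 measured visceral endoderm genes were highest in that array, with a list mean of 10.4 against 7.82 to 8.14 in the single knockout and 7.90 in each of the other double knockout arrays. Ttr, the transthyretin gene, read 13.78 there against 11.53 to 12.09 in the other 5 arrays, Afp 12.44 against 9.72 to 10.35, Apoa1 12.47 against 9.31 to 10.03 and Hnf4a 8.47 against 6.60 to 6.97. Visceral endoderm is an epithelium that expresses Krt8, Krt18, Epcam and Cdh1. Of the 9 genes, Cldn6, Cldn7, Krt8, Krt18 and Epcam were above the mean of the other 5 arrays in that array. Cldn3, Cldn4, Krt7 and Krt19 were below that mean. The median difference of the visceral endoderm list was 0.82. Lrp2, Fgb and Dab2, its genes with the smallest unadjusted p-values, had log2 differences of 0.51, 0.73 and 0.50, which came to 0.25, 0.21 and 0.12 once this array was left out. Without it the visceral endoderm median was -0.07, and the differences of Cldn6, Cldn7 and Epcam were below 0. Those of Krt8 and Krt18 stayed above 0, at 0.14 and 0.10. The part of the visceral endoderm level in the values of the 9 genes was not tested.

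Trophoblast and placenta genes had a list mean of 6.16 in that array against 5.16 to 5.19 in the single knockout and 5.12 in the other double knockout arrays. Of 13 measured genes 5 were over 0.5 above the other 5 arrays there (3.39% of all genes). The list's median deviation from the single knockout mean in that array was 0.09, beside 2.56 for visceral endoderm, so part of the list carried its mean. Of the 13, 11 are dim. The list's median difference was 0.13 (-0.08 without that array), and Elf5, Eomes and Psg17 differed by -0.38, 0.19 and -0.16 between the groups (-0.29, 0.11 and -0.20 without it). Genes listed for maternal decidua had a list mean of 8.26 in double knockout replicate 1 against 7.58 to 7.73 elsewhere. Of the 9, 3 were over 0.5 above the mean of the other arrays (3.39% of all genes) and 0 over 0.5 below it (4.81% of all genes). Named likewise, the 3 were Prl8a2 (by 2.72), Igfbp1 (1.64) and Pgr (0.99). The list's median deviation from the single knockout mean there was 0.34. Wnt4, Hsd11b2 and Bmp2 differed by -0.23, -0.22 and 0.19 (-0.28, -0.17 and 0.12 without that array). The list's median difference was 0.19 (0.07 without that array). Parietal endoderm genes had a list mean of 9.32 there against 9.39 to 9.46 elsewhere, and Thbd, Col4a2 and Lama1 differed by 0.37, -0.21 and -0.15 (0.28, -0.08 and -0.16 without it), the list's median being -0.04 (-0.0012). The part of these tissues in the values of the 9 genes was not tested.

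Gut endoderm markers had a list mean of 8.82 in double knockout replicate 1, 8.12 to 8.25 in the single knockout, and 8.28 and 8.33 in double knockout replicates 2 and 3. Of 12 genes 10 had a higher mean, also without replicate 1, with medians of 0.22 and 0.13, and 0 passed. Sox17 differed by 0.47 (SE 0.18, n = 3 per group), Foxa1 by 0.26 and Gata6 by 0.22, and without replicate 1 they differed by 0.27, 0.24 and 0.12. Surface ectoderm markers lay the other way, with a list mean of 6.36 in replicate 1, 6.57 and 6.58 in replicates 2 and 3, and 6.60 to 6.79 in the single knockout. Of 8 genes 5 had a lower mean, with a median of -0.06 (-0.07 without replicate 1), and 0 passed. Besides Trp63, Wnt6 read 7.77, 7.74 and 7.93 in the single knockout and 7.37, 7.31 and 7.52 in the double knockout, a difference of -0.41 (SE 0.08, n = 3 per group, limma adjusted p = 0.872), and Krt14 differed by 0.13; without replicate 1 these were -0.40 and 0.13. Tfap2a, an early surface ectoderm and neural crest factor, differed by 0.01 (0.23 without replicate 1), so the markers of this tissue were not uniformly lower. The part of either tissue in the values of the 9 genes was not tested.

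Blood and epiblast markers also differed by array. The 7 measured red cell genes had a list mean of 5.04 and 6.91 in double knockout replicates 1 and 3 and of 8.69 to 9.15 in the other 4 arrays, with Hbb-y at 4.05 and 9.28 there and 12.85 to 13.53 elsewhere. Klf1, Gata1 and Hba-x differed by -1.205, -0.45 and -3.50, or -0.88, -0.26 and -1.63 with replicate 1 left out. Krt18 was highest, and Cldn4, Krt7 and Krt19 were lowest, in those same replicates 1 and 3. The remaining genes of the 9 did not line up this way. Cldn3 was lowest in double knockout replicate 2, and Krt8 was higher in single knockout replicate 1 than in double knockout replicate 3. Cldn6, Cldn7 and Epcam were highest in double knockout replicate 1 and not raised in double knockout replicate 3. Epiblast genes had list means of 6.22 to 6.38 in the single knockout and of 7.16, 6.65 and 6.97 in the double knockout, led by Pou5f1 at 5.31 to 6.51 and at 10.77, 6.69 and 7.32. The list did not move as a whole in double knockout replicate 1. There 2 of the 9 genes were over 0.5 above the mean of the other 5 arrays and 3 were over 0.5 below it (3.39% and 4.81% of all genes). The list's median deviation from the single knockout mean was 0.31, 0.24 and 0.28 in double knockout replicates 1, 2 and 3. Pou5f1, Dppa4 and Utf1 differed by 2.35, 0.23 and 0.30, or 1.09, 0.19 and 0.27 with double knockout replicate 1 left out. The median difference was -1.20 over the red cell genes (-0.88 without replicate 1) and 0.23 over the epiblast genes (0.27). No gene of either list passed, and the part of either list in the values of the 9 genes was not tested.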

How the data were processed

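RNA from 6 whole-embryo samples was hybridised to single-colour Affymetrix arrays. Total RNA came from Trizol and RNeasy extraction and carried a biotin label, per the labels' protocols. The authors deposited 1 table of log2 values (45101 probe sets), which the submitters' processing notes credit to RMA without a version. RMA gives all arrays a common distribution and compresses differences near background. The log2 scale was read from the values (2.64 to 15.17, array medians 5.79 to 5.82). Precision is limited by the number of arrays.

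Of the probe sets, 34945 had a single gene symbol in the platform annotation, giving 18193 genes, each read from its brightest probe set. Of these genes' identifiers, 99.1% were found in RefSeq (GRCm38.p6), used for neighbours and promoters. The nearest protein-coding gene on each side was taken as neighbour. Groups were compared with limma 3.58.1 under R 4.3.3 (lmFit, eBayes, two-sided, Benjamini-Hochberg over all genes, threshold 0.05), with an exact permutation test beside each of the 9 genes. On simulated tables of 18193 genes for this comparison the test recovered 87% of 2-fold and 96.2% of 4-fold changes, with 5.23% false calls. In those tables many genes were changed together, and a gene that changes alone is harder to call. The simulated noise was independent between genes and held no outlying array. These rates check the procedure and do not give the share of real changes found in these data.

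Besides the 9 genes, the text names Fzd2, Fzd7 where needed, fixed landmark genes, and from each of 15 lists (180 genes, 169 measured) the members past the threshold or, failing that, 3 by smallest unadjusted p, and the 5 genes most correlated with the mean of the 9 among those with a range of at least 1. Some further genes were named after their values were seen and are marked so in the text. The 9 genes and the lists were chosen with earlier results of these data known. Replicate numbers recur in both groups, but no label says that they mark a litter or batch, so no block was used. Across all genes same-numbered arrays did not deviate together (r = 0.09, -0.04 and -0.13), which does not speak for each single gene. The alternatives were the replicate number as a block, robust moderation with an intensity trend, a filter on dim genes, averaged or separate probe sets, array weights, median centring, quantile normalization anew, a threshold of 0.1 and each array left out in turn.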

Additional observations from a re-analysis of the deposited data

How the results depend on the processing

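None of the 9 genes passed in any of the 15 alternatives run. Over all genes 1 was called (Fzd2), also with the replicate block, and 0 when probe sets were averaged; leaving out 1 array in turn gave 0 to 1. With the replicate block the call of 0 of the 9 genes was the same, and the lowest limma adjusted p was 0.521, for Krt7. The block lowered the SE of Krt7 from 0.17 to 0.085, of Krt8 from 0.15 to 0.068 and of Krt19 from 0.13 to 0.071. It raised the SE of Cldn3 from 0.062 to 0.067 and of Cldn6 from 0.15 to 0.17. The directions of Cldn3, Cldn4, Krt7, Krt8, Krt18 and Krt19 were the same in every alternative in which they were tested; Cldn3 was not tested when genes below the median brightness were left out. With array weights the log2 differences turned to -0.032 for Cldn6, -0.14 for Cldn7 and -0.0079 for Epcam. Leaving out each array in turn gave -0.057 to 0.191 for Cldn6, -0.193 to 0.247 for Cldn7 and -0.049 to 0.177 for Epcam, in each case lowest, and below 0, without double knockout replicate 1. Leaving out each array in turn, an alternative added after seeing the data for this count, gave 4 to 6 genes without overlap, while the share of all genes rose from 11.4% to between 18.4% and 23.4%, since smaller groups overlap less. Dim genes have compressed differences, and 3 arrays a group cannot give an exact permutation p below 0.1.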
